A study of Mus musculus with 9 samples.

Results

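Hoxa2, Hoxa3, Hoxa4 and Hoxa5 of the Hoxa cluster and Hoxd3 and Hoxd4 of the Hoxd cluster are 6 of the 14775 mouse genes that could be named in a table of normalized read counts, and 6 of the 14 Hox genes with a row in it. They were chosen by their measured levels, because they were high in some tumour libraries and low in others, so their levels are given as a description and without a test. The table covered 14 of the 39 Hox genes annotated in the mouse. Hoxa9, Hoxa10, Hoxa11, Hoxd1, Hoxd8, Hoxd11, Hoxd12, all Hoxb genes but Hoxb2 and all Hoxc genes were not analysed here. Each of the 6 genes had 1 row, matched through its RefSeq accession.

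Messenger RNA was sequenced from 9 libraries in 3 groups of 3. The AG libraries (AG_1, AG_2 and AG_3) came from astroglia of strain C57BL/6 with the genotype p53 DN, Nf1 shRNA, which names the tumour suppressor p53 and an RNA against Nf1, an inhibitor of RAS signalling. The BS libraries (BS_287, BS_295 and BS_296) came from brainstem tumour cells and the OB libraries (OB_257, OB_287 and OB_295) from olfactory bulb tumour cells. Both tumour groups carried Foxr2 overexpression, a forkhead transcription factor, with p53 cko, on a 129;C57BL/6 mix. A p53 label is thus common to all 3 groups, in different forms, and strain, genotype and tissue cannot be told apart between AG and either tumour group. The numbers of BS_287 and BS_295 recur in OB_287 and OB_295. What these numbers mark, and whether the libraries within a group are separate animals or cultures, is not in the labels, so p-values measure the spread between libraries, which may be technical.

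Recovered whole reads ran from 11300273 to 19868282 per library. Among the astroglia markers, the AG libraries held Gja1, Sox9 and Slc1a3, whereas Gfap, Aqp4, Aldh1l1 and Aldoc, which define mature astrocytes, stayed at or under 5.91 normalized reads in each AG library, and Slc1a2 was not analysed here. OB_257 stood furthest apart among the tumour libraries. Its correlation with each of the others over all tested genes, on the log2 scale, was 0.841 to 0.886. BS_287 came next, at 0.869 to 0.919 with the tumour libraries other than OB_257, and the remaining pairs were at 0.942 to 0.959. The Sox9 value of OB_257 was 25.4 normalized reads, against 2836 to 5229 in the other 5 tumour libraries. In bulk RNA of this kind, fewer cells of a type and less RNA per cell cannot be told apart.

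Hox genes encode homeodomain transcription factors that give cells their position along the head-to-tail axis. They lie in clusters, and genes at the 3′ end of a cluster are switched on earlier and further forward in the embryo than genes at its 5′ end. In the nervous system Hox genes are active in the hindbrain and spinal cord, with forward limits that differ between genes, and are normally silent in the forebrain and midbrain, which include the olfactory bulb. Hox proteins bind DNA together with the TALE homeodomain proteins of the Pbx and Meis families.

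Promoter sequences are shown for 4 of the genes: Hoxa2 and Hoxa5, which had the lowest and the highest level per kb of transcript among the 4 Hoxa genes in BS_295 and OB_295, and Hoxd3 and Hoxd4, the pair found in OB_257. They are from RefSeq on build GRCm38.p6 and run from 250 bases before to 50 bases after the gene's start, 5′ to 3′ on the gene's strand. Hoxa2 and Hoxa5 are on the minus strand at chr6:52164782-52165081 and chr6:52204538-52204837, Hoxd3 and Hoxd4 on the plus strand at chr2:74711743-74712042 and chr2:74721728-74722027. Capitals mark matches to TGATNNAT, a Hox-Pbx motif, to TGACAG, a Meis motif, and to CCAAT, the CCAAT box, on either strand and with overlaps allowed.
Hoxa2: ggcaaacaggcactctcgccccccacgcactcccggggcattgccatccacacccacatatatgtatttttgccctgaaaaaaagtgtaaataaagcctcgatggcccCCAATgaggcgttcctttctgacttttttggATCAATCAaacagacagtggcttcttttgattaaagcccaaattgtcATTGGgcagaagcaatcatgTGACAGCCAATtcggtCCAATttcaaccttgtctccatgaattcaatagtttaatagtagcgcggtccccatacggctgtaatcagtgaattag
Hoxa5: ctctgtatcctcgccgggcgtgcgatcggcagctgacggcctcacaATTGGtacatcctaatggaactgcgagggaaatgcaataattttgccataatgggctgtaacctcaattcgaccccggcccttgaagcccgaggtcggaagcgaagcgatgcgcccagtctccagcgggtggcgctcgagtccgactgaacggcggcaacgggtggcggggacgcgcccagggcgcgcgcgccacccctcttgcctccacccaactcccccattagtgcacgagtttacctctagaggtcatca
Hoxd3: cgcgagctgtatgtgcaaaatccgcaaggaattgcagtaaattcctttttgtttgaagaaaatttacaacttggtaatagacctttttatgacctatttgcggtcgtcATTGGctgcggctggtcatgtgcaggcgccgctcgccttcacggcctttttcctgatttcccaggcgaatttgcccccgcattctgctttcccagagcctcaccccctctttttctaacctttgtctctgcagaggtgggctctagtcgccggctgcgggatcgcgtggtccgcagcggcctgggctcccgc
Hoxd4: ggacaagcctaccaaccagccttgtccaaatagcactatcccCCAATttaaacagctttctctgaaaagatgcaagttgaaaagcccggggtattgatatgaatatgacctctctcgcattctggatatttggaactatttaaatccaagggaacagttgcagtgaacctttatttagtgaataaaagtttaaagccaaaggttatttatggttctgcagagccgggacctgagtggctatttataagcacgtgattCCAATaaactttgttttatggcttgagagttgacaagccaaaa
The Hoxa2 promoter held 1 match to the Hox-Pbx motif, 1 to the Meis motif and 4 to CCAAT. The Hoxa5 and Hoxd3 promoters each held 1 match to CCAAT and the Hoxd4 promoter 2, with no match to the Hox-Pbx or Meis motif in these 3 windows. The Hoxa3 promoter, the remaining entry that matched a member, held 1 Meis match and none to the others. Its window is on the minus strand at chr6:52213018-52213317. In RefSeq the span of Hoxa3 holds Hoxa4, Hoxa5 and Hoxa6, so this window lies beyond those genes. The homeodomain core TAATTA was found in none of the 5. Of 32851 mouse promoters of the same length, 8.85% held the Hox-Pbx motif, 19.2% the Meis motif, 37.4% CCAAT and 5.29% TAATTA, so the match shared by Hoxa2, Hoxa5, Hoxd3 and Hoxd4 was a common one. Base composition differed more, with 61.7% G and C in Hoxa5 and 64% in Hoxa3 but 39.7% in Hoxd4, around a median of 52.7% over all promoters.

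The 4 Hoxa genes were high together in BS_295, OB_295 and BS_296, in that order, and low in the other 6 libraries. Their summed level was 1901 normalized reads in BS_295 (1782 reads), 1363 in OB_295 (1254 reads) and 570.4 in BS_296 (579 reads). It was 49.7 in OB_257, 31.4 in OB_287 and 0.839, a single read, in BS_287, against 17.5, 27.6 and 19.6 in AG_1, AG_2 and AG_3. The libraries that were high thus came from both tumour sites, and each site also held a library near the AG level or under it. Hoxd3 and Hoxd4 did not follow the Hoxa genes: their summed level was 402 normalized reads (364 reads) in OB_257 and at most 1.68 (2 reads) in any other library. The name under which these genes were chosen, genes of single tumours, therefore holds for the Hoxd pair, while the Hoxa genes were high in 3 of 6 tumour libraries.

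**Figure D1:**
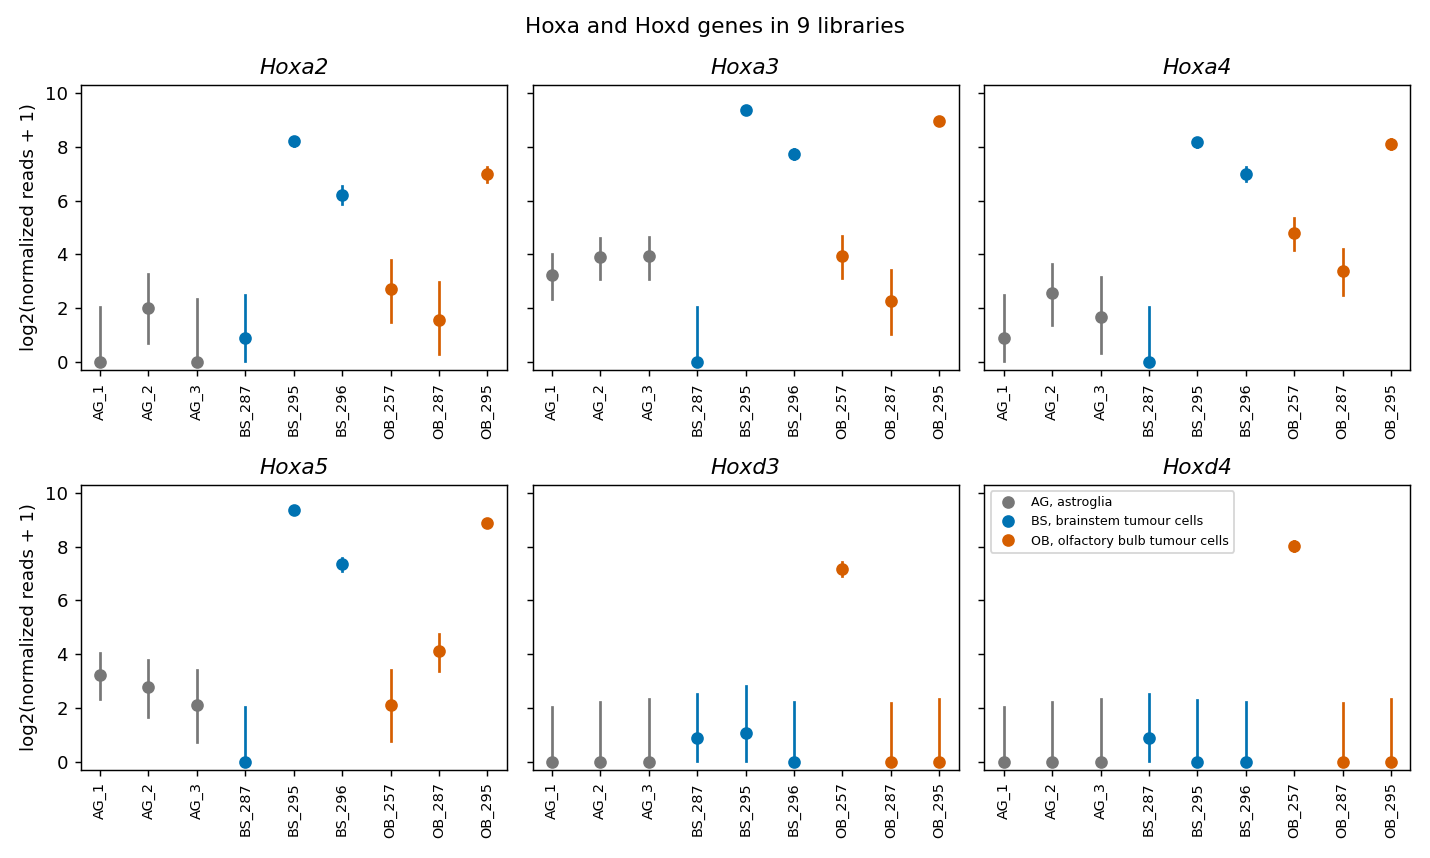
Level of each gene in each library, on a log2(normalized reads + 1) axis; points are single libraries and vertical lines exact 95% Poisson intervals, which cover counting error only. The 4 Hoxa genes are high in BS_295, BS_296 and OB_295, and Hoxd3 and Hoxd4 in OB_257.

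Hoxa2 gives the second pharyngeal arch and the anterior hindbrain their identity and has the most anterior limit of expression of any Hox gene. Its level was 0, 2.96 and 0 normalized reads in AG_1, AG_2 and AG_3, then 0.839, 295.5 and 72.9 in BS_287, BS_295 and BS_296, and 5.53, 1.90 and 125 in OB_257, OB_287 and OB_295. BS_295 was the highest and exceeded OB_295 by 2.36-fold, with counting intervals of 262 to 332 and 103 to 150 that did not overlap. BS_287 and OB_287 lay within the range of the AG libraries, and OB_257, with 5 reads, was just above it.

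Hoxa3 is needed for the thymus, the parathyroid and other derivatives of the pharyngeal pouches. It was measured at 8.34, 13.8 and 14.2 normalized reads in the AG libraries, at 0, 656 and 211 in BS_287, BS_295 and BS_296, and at 14.4, 3.81 and 498 in OB_257, OB_287 and OB_295. The AG libraries held 37 reads of it in all. BS_287 and OB_287 were below every AG library, OB_257 was level with AG_3, and BS_295 and OB_295 differed by 1.32-fold. Of the 2591 exon bases of the Hoxa3 transcript in the GENCODE annotation, 19.4% are also exon of Hoxaas2 and 2.93% of Hoxaas3, both antisense RNAs on the opposite strand. The library kit keeps strand, but the strand setting of the counting is not given in the sources used here, so reads of these stretches cannot be told apart.

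Hoxa4 patterns the cervical vertebrae and the posterior hindbrain. Its values were 0.834, 4.93 and 2.18 normalized reads in the AG libraries, 0, 286.97 and 126 in BS_287, BS_295 and BS_296, and 26.5, 9.52 and 275 in OB_257, OB_287 and OB_295. BS_295 and OB_295 were alike at 1.04-fold, with overlapping counting intervals of 254 to 323 and 242 to 311. All 3 OB libraries were above all 3 AG libraries, which held for 1 of the 6 genes, while 49.6% of all named genes had no overlap between these groups in either direction. For BS set against AG, and for OB set against BS, the groups overlapped for all 6 genes, while 49.7% and 10.2% of all named genes had no overlap. Since these values chose the genes, nothing is read from these counts.

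Hoxa5 is required for the lung and airway and for the identity of the cervical and upper thoracic skeleton. The AG libraries held 8.34, 5.91 and 3.27 normalized reads, BS_287, BS_295 and BS_296 held 0, 662.5 and 161, and OB_257, OB_287 and OB_295 held 3.32, 16.2 and 465. BS_295 exceeded OB_295 by 1.42-fold and BS_296 by 4.13-fold. Among the low tumour libraries, OB_287 (17 reads) was above OB_257 (3 reads), with counting intervals of 9.42 to 25.9 and 0.684 to 9.69 normalized reads that overlapped at their ends. For Hoxa4 the same libraries were in the opposite order, with 10 reads in OB_287 and 24 in OB_257, and intervals of 4.56 to 17.5 and 17 to 39.5 that again overlapped at their ends.

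Hoxd3 acts in the formation of the atlas, the first vertebra, and Hoxd4 in the posterior hindbrain and neck, where in mouse embryos it responds to retinoic acid. Hoxd3 stood at 143 normalized reads in OB_257 (129 reads), at 0.839 in BS_287 and 1.07 in BS_295, a single read each, and at 0 in the other 6 libraries. Hoxd4 stood at 260 in OB_257 (235 reads), at 0.839 in BS_287, a single read, and at 0 in the other 7. The ratio of OB_257 to the next library was 134 for Hoxd3 (exact 95% interval 23.6 to 5319) and 310 for Hoxd4 (55 to 12284). Set against a floor of 3 reads per AG library, or 2.91 normalized reads, OB_257 was at least 49-fold higher than AG for Hoxd3 and at least 89.3-fold for Hoxd4. In the olfactory bulb group both genes thus rested on 1 library, and OB_287 and OB_295 had no read of either gene. The counting intervals of both genes ended at 3.51 normalized reads in OB_287 and 4.01 in OB_295. In the GENCODE annotation 13.1% of the 2968 exon bases of Hoxd3 are also exon of Hoxd4 on the same strand, and 11.7% are exon of Hoxd3os1 on the opposite strand. How reads of these stretches were assigned is not given in the sources used here.

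Because single libraries carried these levels, differences between group means turned on which library was included. The mean of Hoxa3 was 289 ± 335 normalized reads in BS (SD, n = 3) and 172 ± 282 in OB, against 12.1 ± 3.26 in AG, and the SD of both tumour groups was above the mean. For Hoxa5 the means were 274 ± 346 in BS, 162 ± 263 in OB and 5.84 ± 2.54 in AG. On the log2(value + 1) scale the difference of OB from AG was 1.38 for Hoxa3 and fell to -0.57 without OB_295. It kept its sign for Hoxa2 (3.08, lowest 1.46), Hoxa4 (3.73, lowest 2.39) and Hoxa5 (2.32, lowest 0.40), each lowest without OB_295. It was 2.39 for Hoxd3 and 2.68 for Hoxd4, and 0.00 for both without OB_257. The difference of OB from BS was -1.36, -0.64 and -0.54 for Hoxa2, Hoxa3 and Hoxa5, and became 0.20, 1.19 and 1.36 without BS_295. For Hoxa4 it was 0.38, and -2.15 without BS_287. For Hoxd3 and Hoxd4 it was 1.75 and 2.38, and -0.64 and -0.29 without OB_257. The difference of BS from AG kept its sign for Hoxa2 (4.44, lowest 2.88), Hoxa3 (2.02, lowest 0.19), Hoxa4 (3.35, lowest 1.79) and Hoxa5 (2.87, lowest 0.97), each lowest without BS_295. No difference between the tumour sites in any of the 6 genes thus kept its sign when 1 library was left out.

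Within the Hoxa genes, the share of each gene in their summed reads was similar but not identical in the 3 high libraries. Hoxa3 took 34.5% in BS_295 (95% Clopper-Pearson interval 32.3 to 36.8), 37% in BS_296 (33 to 41) and 36.5% in OB_295 (33.9 to 39.3), and these intervals overlapped. Hoxa2 took 15.5% (13.9 to 17.3), 12.8% (10.2 to 15.8) and 9.17% (7.63 to 10.9) in the same order, so that its share was larger in BS_295 than in OB_295 beyond counting error. Hoxa4 took 15.1% (13.5 to 16.8) in BS_295 and more in the others, with 22.1% (18.8 to 25.7) in BS_296 and 20.2% (18 to 22.5) in OB_295. Hoxa5 took 34.8% (32.6 to 37.1), 28.2% (24.5 to 32) and 34.1% (31.5 to 36.8). In OB_257, with 45 reads in all, Hoxa4 alone took 53.3% (37.9 to 68.3), which lay above its share in each of the other 3 libraries. The Hoxd reads of OB_257 were 35.4% Hoxd3 (30.5 to 40.6) and 64.6% Hoxd4. No molecular identifiers are named for these libraries, so all such intervals cover counting error only.

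**Figure D2:**
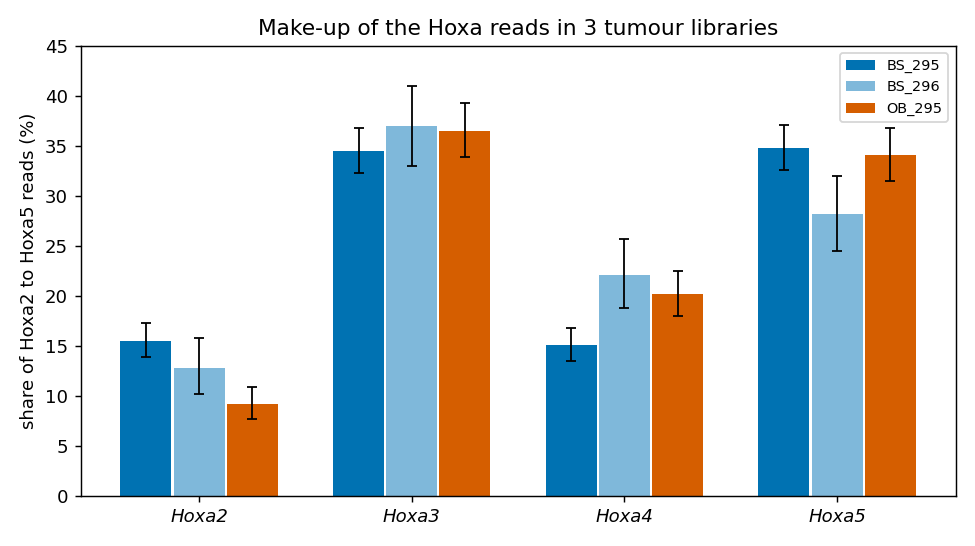
Share of each gene in the summed reads of Hoxa2 to Hoxa5, in percent, in the 3 libraries with the most such reads; bars start at 0 and whiskers are 95% Clopper-Pearson intervals. The Hoxa3 bars are level at 34.5% to 37%, and the Hoxa2 bar falls from 15.5% in BS_295 to 9.17% in OB_295.

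To set the levels of different genes side by side, they were taken per kb of the matched transcript. In BS_295 the order was Hoxa5 (353 normalized reads per kb), Hoxa3 (253), Hoxa4 (180) and Hoxa2 (166). OB_295 had the same order, at 248, 192, 172 and 70.4. In BS_296 Hoxa5, Hoxa3 and Hoxa4 were close together at 85.6, 81.4 and 79.1 per kb and Hoxa2 was lower at 41.1. Hoxa6, the neighbour on the 5′ side of Hoxa5, was far lower, at 19.5, 6.76 and 12.4 per kb in BS_295, BS_296 and OB_295. The fall did not continue along the cluster: Hoxa7 was at 70.6, 6.87 and 29.2 per kb in these libraries. Hoxa13 was at 73.1 per kb in OB_295. In OB_257 Hoxd4 reached 101 per kb and Hoxd3 48, while its highest Hoxa gene, Hoxa4, reached 16.6.

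The other genes inside the clusters showed how far each library's activity reached. Hoxa7, a trunk gene, was at 142 normalized reads in BS_295, 58.7 in OB_295 and 13.8 in BS_296, and at no more than 1.09 elsewhere. Hoxa13, the most 5′ gene of the cluster, which acts in the digits, hindgut and genital tubercle, was at 95.6 in OB_295 (88 reads), 3.94 in BS_296 and 0 in the remaining 7 libraries, including BS_295. Hoxb2, a hindbrain gene of the Hoxb cluster, was at 103.5 in BS_295 (97 reads) and 0 in the remaining 8. OB_257 alone held Hoxd9 (76.3 normalized reads), Hoxd10 (23.2) and Hoxd13 (47.5, a digit gene) above 1.09. Each of the 4 tumour libraries with high Hox levels therefore had its own combination, with Hoxb2 in BS_295, Hoxa13 in OB_295, posterior Hoxd genes in OB_257 and neither of these in BS_296 beyond 4 reads of Hoxa13. BS_287, with 3 reads over all 14 Hox genes, was at 2.52 normalized reads, below AG_1, AG_2 and AG_3 at 18.3, 27.6 and 21.8.

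Noncoding RNAs of the clusters followed in part. Hotairm1, an RNA from the 3′ end of the Hoxa cluster, was at 156 normalized reads in BS_295, 74.9 in BS_296 and 58.7 in OB_295. In OB_257 it was at 37.6 and in OB_287 at 12.4, and in the AG libraries at 8.34, 0 and 6.53. Gm15050, which like Mira, Haglr and Gm14424 was added to the list after its values had been seen, was likewise at 34.3 in OB_257 beside 147, 31.5 and 46.7 in BS_295, BS_296 and OB_295, so that OB_257 reached the level of BS_296 for this RNA but not for the Hoxa genes. Mira, an RNA between Hoxa6 and Hoxa7, followed Hoxa7 with 194 in BS_295, 98.9 in OB_295, 14.8 in BS_296 and 0 in OB_257. In the Hoxd cluster Haglr (54.2, 49 reads) and Gm14424 (7.74) were found in OB_257 alone, and Hoxd3os1 was at 23.2 there and at 1.07, a single read, in BS_295. Hoxb3os was at 27.7 in BS_295 alone, the library with Hoxb2. Hoxa7, Hotairm1, Hoxaas2, Gm15050 and Mira were the 5 rows beside the members that passed the filter of 10 normalized reads in at least 3 libraries. None of them was called by limma, with the smallest adjusted p of 0.0811 for Hoxaas2 in OB against AG. All 5 passed through tumour libraries alone, with an SE of 1.33 to 2.08 on the log2 scale, so nothing is read from the missing calls. Among all 10578 tested genes, limma called 34.9% when OB was compared with AG, 35.1% when BS was, and 0% between the tumour groups.

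**Figure D3:**
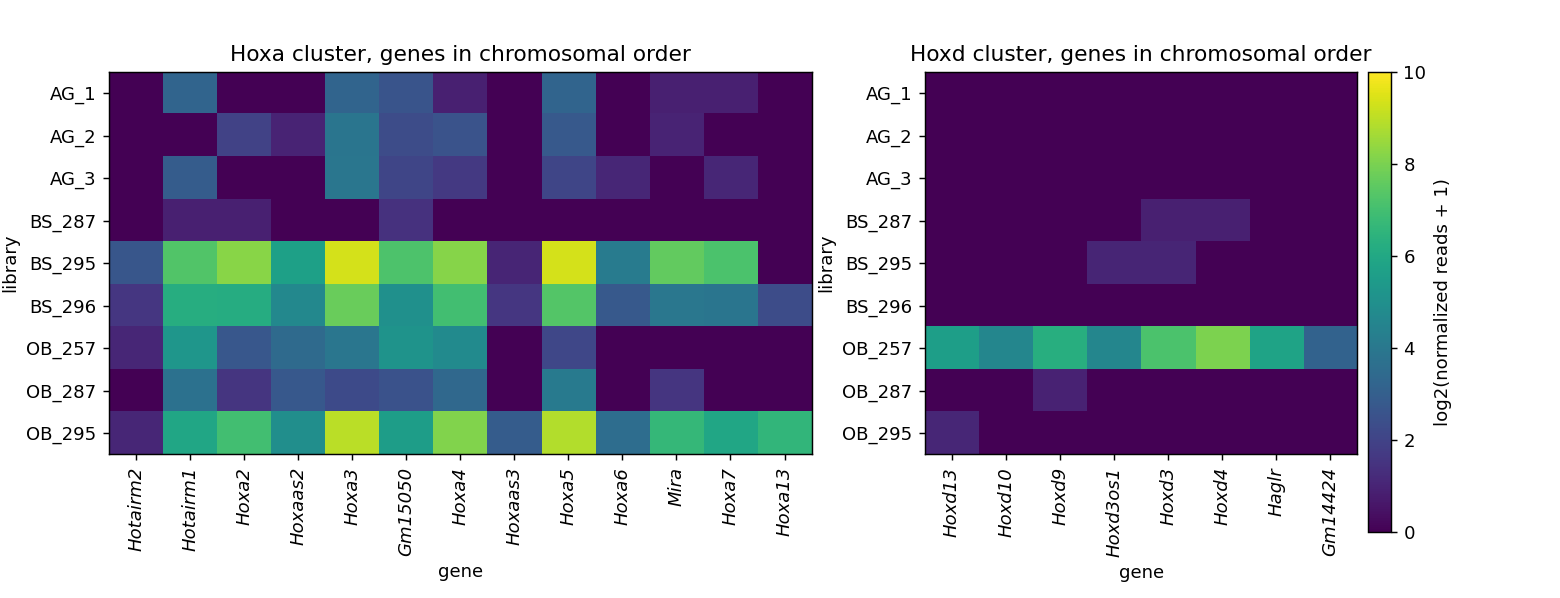
Genes of the Hoxa cluster (left) and the Hoxd cluster (right) in chromosomal order (columns) in the 9 libraries (rows), coloured by log2(normalized reads + 1). BS_295, BS_296 and OB_295 are bright across Hoxa2 to Hoxa5, Hoxa13 is bright in OB_295 alone, and the Hoxd cluster is bright in OB_257 alone.

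How common such single-library levels are was counted over the 8990 genes with at least 50 normalized reads in some library. In OB_257, 114 genes (1.27%) were at least 4-fold above the next highest library with 1 normalized read added to both, and Hoxd3, Hoxd4 and Hoxd9 were among them. In OB_295 it was 37 genes (0.412%), with Hoxa13, and in BS_295 7 genes (0.0779%), with Hoxb2. Hoxa2, Hoxa3, Hoxa4 and Hoxa5 did not meet this rule in any library. Single-library genes were most frequent in OB_257, the library that stood furthest apart, and their part in the Hoxd levels was not tested. BS_287 came next with 75 genes (0.834%), none of them a Hox gene. Of the members, the 4 Hoxa genes passed the filter and Hoxd3 and Hoxd4 did not. Among the genes that passed the filter, 71 met the rule in OB_257, none of them a Hox gene.

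The genes next to the clusters did not share one pattern. Skap2, an adaptor protein gene beyond the 3′ end of the Hoxa cluster, was at 3789, 3051 and 4105 normalized reads in BS_295, BS_296 and OB_295 and at 86.4, 1057 and 1136 in BS_287, OB_257 and OB_287, against 1593 to 1749 in the AG libraries. Its highest 3 libraries were the 3 with high Hoxa levels and its lowest was BS_287, where the Hoxa genes had a single read. limma did not call Skap2 in either comparison with AG (log2 difference 0.04 ± 1.29 SE, adjusted p = 0.985 in OB, -0.72 ± 1.29, adjusted p = 0.7 in BS). Halr1, a noncoding RNA between Skap2 and the cluster, went the other way: it was at 261 to 289 normalized reads in the AG libraries and at no more than 10.7 in any tumour library, and was called lower in OB (-7.23 ± 0.59, adjusted p = 4.8e-05) and in BS (-5.18 ± 0.59, adjusted p = 0.000288). Snx10, beyond Skap2, did not exceed 15.3 normalized reads. Beside the Hoxd cluster, Mtx2, a mitochondrial outer membrane gene, was highest in OB_257 at 1849 normalized reads but within 507 to 1556 elsewhere and was not called. Lnpk did not exceed 28.3 and was not called. Nfe2l2, the oxidative stress regulator, was called lower in OB (-1.14, adjusted p = 0.0266) and BS (-1.16, adjusted p = 0.0249), calls lost with upper-quartile rescaling and without any 1 of AG_1, AG_2 and AG_3, OB_295 (OB) and BS_295 or BS_296 (BS). Hottip, Evx1os, Evx1, Evx2, Atp5g3 and Hnrnpa3 were not analysed here.

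Members were also set beside all genes by their profile over the 6 tumour libraries, as Pearson correlations of log2(value + 1) given as a description. Among the members the Hoxa genes correlated with each other at 0.94 to 0.98 and Hoxd3 with Hoxd4 at 0.99. The members were chosen by these same levels, and the Hoxd value rests on OB_257 alone, so nothing is read from these correlations. The closest of 8814 genes were Tmem38b (0.995), Arpc4 and Atpaf1 for Hoxa2, Atpaf1 (0.992), 1810010H24Rik and Tlr4 for Hoxa3, Hadha (0.999), Snrnp35 and Rnf34 for Hoxa4, and Lrrtm3 (0.996), Eif2s3x and Ppp1r14c for Hoxa5. With 6 libraries such values are frequent: 107 to 238 genes had a correlation above 0.9 with a given member. Lrrtm3, a neuronal adhesion gene, had a wide range, at 1043, 479 and 980 normalized reads in BS_295, BS_296 and OB_295 and at 49.5, 120.5 and 207.5 in BS_287, OB_257 and OB_287. Hadha, a fatty acid oxidation enzyme, moved far less, from 2990 in BS_287 to 7815 in BS_295. For Hoxd3 the closest were Pus7l (0.995), Alx1 and Fbxo28, and for Hoxd4 Uhrf1bp1 (0.999), Lhx8 and Prss22. Alx1, a homeobox gene of the cranial mesenchyme, was at 895 normalized reads in OB_257, at no more than 2.13 in the other tumour libraries and at 29.2 to 37.0 in AG. Lhx8 was at 5.53 in OB_257, 0 in the other tumour libraries and 180 to 206 in AG, so its correlation rests on a few reads of 1 library.

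Of 7 TALE cofactors tested, 1 was called higher and 1 lower in OB against AG, and the same numbers in BS against AG, which shares the AG libraries. Called genes were thus not more frequent in this list than among all tested genes, at 34.9% and 35.1%. The list median was 0.73 and 0.26 on the log2 scale, beside -0.01 and -0.03 over all genes tested. Pknox2 was higher, at 0, 0.986 and 1.09 in the AG libraries and 4.19 to 28.3 in the tumour libraries (adjusted p = 0.00492 in OB and 0.00909 in BS). Meis1, a main partner of Hox proteins, was not called and did not follow the Hoxa genes, with 100.5 normalized reads in BS_296, 58.7 in BS_295, 18.5 in OB_295 and 26 in BS_287.

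Retinoic acid switches on 3′ Hox genes in the embryo, and most tested genes of its pathway and of axial regulation were lower in tumour cells than in AG. Of 8 tested, 6 were called lower and 1 higher in OB, and 5 lower and none higher in BS. The list medians were -2.13 and -2.68 on the log2 scale. Among all 10578 tested genes, 34.9% were called in OB (2008 lower) and 35.1% in BS (2060 lower). The part of the retinoic acid genes in the Hox levels was not tested. Aldh1a3, which makes retinoic acid, was at 380 ± 8.10 normalized reads in AG, 42.0 ± 17.5 in OB (-3.23 ± 0.39 SE, adjusted p = 0.000408) and 33.2 ± 11.9 in BS (-3.53 ± 0.39, adjusted p = 0.000249). Crabp1, a retinoic acid carrier, was at 100 to 134 in the AG libraries and at 0 to 1.90 in OB (adjusted p = 0.00323) and 0 to 19.3 in BS (adjusted p = 0.00545). Rarg, a retinoic acid receptor, was lower in BS (-3.54 ± 0.60, adjusted p = 0.00235) and in OB (-2.35 ± 0.60, adjusted p = 0.016), the latter call lost without AG_1 or OB_295. Egr2, which activates Hoxa2 in the hindbrain, was called lower in OB (adjusted p = 0.041) and BS (adjusted p = 0.0488), calls that were lost without any 1 of the AG libraries, among other settings. Between BS_295, with the highest Hoxa sum, and BS_287, with 1 read, Egr2 was at 45.9 and 9.23 normalized reads, but between OB_295 and OB_287, whose Hoxa sums also lay far apart, it was at 31.5 and 32.4. The carrier Crabp2, called higher in OB (adjusted p = 0.0305), was lost as a call without any 1 of the 6 libraries compared.

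Polycomb complexes keep Hox clusters silent and MLL complexes keep them active. Of 12 tested genes of both, 2 were called higher and 1 lower in OB, and 3 higher and 1 lower in BS. The list medians were 0.23 and -0.03, and 34.9% and 35.1% of all tested genes were called in OB and BS. Mllt3, a partner of MLL in leukaemia fusions, was at 2199 ± 41.1 normalized reads in AG, 226 ± 66.9 in OB (-3.32 ± 0.31 SE, adjusted p = 0.000105) and 353 ± 139 in BS (-2.71 ± 0.31, adjusted p = 0.000314). Kdm6b, which removes the Polycomb mark, was higher in OB (1.12 ± 0.25, adjusted p = 0.00849) and in BS (1.00 ± 0.25, adjusted p = 0.0144, lost without AG_3). In BS, Cbx2, of a Polycomb complex (1.10 ± 0.32, adjusted p = 0.0281) and Dot1l, a histone methyltransferase recruited with MLL fusions (0.47 ± 0.13, adjusted p = 0.0197) were called higher, both lost without any 1 of the AG libraries, Cbx2 also without BS_296. The core subunits Eed and Suz12 were not called, and Eed was at 1805 normalized reads in BS_295 and 1547 in BS_287.

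Regional factors of the brain were also described in the same libraries, and whether they mark the position of these cells was not tested. En1, which marks the midbrain and anterior hindbrain, was at 2651 to 2909 normalized reads in the AG libraries and at 1448 in BS_287, but at 6.401 in BS_295, 40.4 in BS_296, 0 in OB_257, 111 in OB_287 and 2.17 in OB_295. The 2 tumour libraries with the highest Hoxa sums thus had under 10 reads of En1, and BS_287, with 1 Hoxa read, had the highest En1 level of the tumour libraries. OB_257, with low Hoxa levels, had no En1 read, so the order was not simply reversed. En1 was called lower in OB (log2 difference -8.60, adjusted p = 0.0134), but not by edgeR (adjusted p = 0.0611), and not in BS (-5.18, adjusted p = 0.0884). En2 was called lower in OB (-2.98 ± 0.75, adjusted p = 0.0154), lost without AG_1.

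Of 8 midbrain and hindbrain factors tested, 2 were called higher and 4 lower in OB, and 2 higher and 1 lower in BS. The list medians were -2.88 and -0.42, and 34.9% and 35.1% of all tested genes were called in OB and BS. Zic1, of the dorsal neural tube and cerebellum, had no read in AG and was at 211 in OB_257, 1477 to 2534 in the other OB libraries and 2301 to 4992 in BS, at least 484-fold above the AG floor in the mean of OB (adjusted p = 4.91e-05) and 1268-fold in that of BS (adjusted p = 1.81e-05). Gbx2, of the anterior hindbrain, was at 3.27 to 7.504 in AG, 93.1 to 421 in BS (4.91 ± 1.26, adjusted p = 0.0169) and 18.8 to 998 in OB (4.77 ± 1.26, adjusted p = 0.0188). Both Gbx2 calls were lost without AG_2 or AG_3, and also without BS_296 and OB_295 respectively. Pax8 was at 3542 to 3927 in AG, at 0, 6.66 and 0 in OB (adjusted p = 0.000831) and at 0, 11.7 and 100.5 in BS (adjusted p = 0.00321). Pax3, a dorsal neural tube gene, was at 75.7 in BS_295 and 27.6 in BS_296 but 0 in BS_287 and in all OB libraries, and was not called.

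Of 7 forebrain factors tested, none was called higher and 2 lower in OB, with a median of -1.39, and 1 higher and 3 lower in BS. Six3, of the anterior forebrain, was at 261 to 304 in AG and no more than 21.0 in the tumour libraries (adjusted p = 0.00378 in OB and 0.00154 in BS). Emx2 was higher in BS, at 100.5 to 323 beside 20.01 to 29.6 in AG (3.07 ± 0.70, adjusted p = 0.01). Dlx1, a gene of ventral forebrain interneurons, was not called but split the tumour libraries: it was at 183 in BS_287 and 143 in OB_257 and at 2.96 to 11.4 in the other 4. Dlx2 ran the same way, at 52 and 163 against 6.401 to 19.98, and was called lower in BS (-4.07 ± 0.99, adjusted p = 0.0136), a call lost without AG_1. limma called 0 genes of these lists, and 0 of 10578 tested genes, in OB against BS (1020 at an unadjusted p under 0.05; edgeR 0, DESeq2 233).

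**Figure D4:**
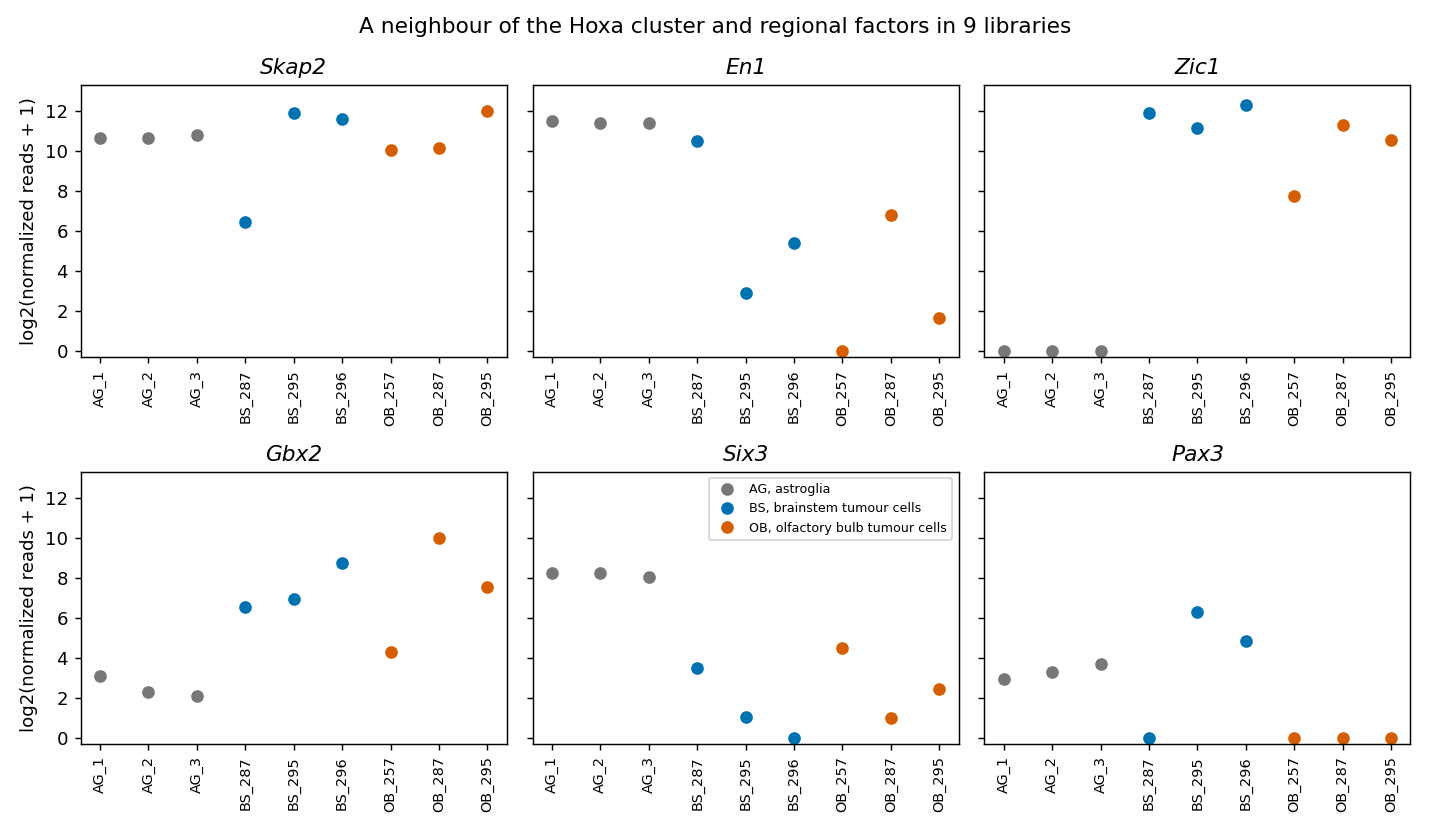
Skap2 and 5 regional factors in each library, on a log2(normalized reads + 1) axis; points are single libraries. Skap2 is highest in BS_295, BS_296 and OB_295, En1 is high in AG and BS_287, Zic1 is at 0 in AG only, and Pax3 in tumours is found in BS_295 and BS_296 alone.

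Markers of other cell types were summed per library, with counts of the markers tested. The fibroblast and mesenchymal list, cells in which Hox genes can be active, summed to 37359 to 48031 normalized reads in the AG libraries, with 7 of 8 markers in the table. It was 240 in BS_295, 200 in BS_296, 234 in OB_295, 132.5 in BS_287, 77.1 in OB_287 and 11.1 in OB_257, and Dcn was at 0 in all 6 tumour libraries. The summed level was highest in the 3 libraries with high Hoxa levels and lowest in the library with the Hoxd pair, but its genes did not move together. In BS_295 Prrx1 made up 223 of the 240, while Twist1 was at 2.13 and Col3a1 at 0, below their values of 73.0 and 8.39 in BS_287. Microglia and macrophage markers, 3 of 7 in the table, summed to 32 to 103 in BS and 68.5 to 81.8 in OB, lowest in BS_295. Endothelial markers, 5 of 6, summed to 29.6 to 244 in BS and 11.1 to 234 in OB, with Flt1 at no more than 3.94 in the tumour libraries. Neuron markers, 6 of 7, summed to 1078 to 5305 in BS and 2226 to 4566 in OB, and oligodendrocyte precursor markers, 6 of 6, to 34103 to 78716 and 35907 to 58128, beside 16.3 to 20.01 in AG. Astrocyte markers, 8 of 9, summed to 27593, 30952 and 34933 in BS_295, BS_296 and OB_295 and to 17391, 6749 and 19298 in BS_287, OB_257 and OB_287. The AG libraries were at 8602 to 8693. Slc1a3 alone was at 22694, 25665 and 23699 in BS_295, BS_296 and OB_295, and S100b made up 6616 of the sum in OB_257. Gja1 was lower in every tumour library than in AG, so the astrocyte markers did not move together. Erythroid markers were not analysed here. The part of any of these cell types in the Hox levels was not tested.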

How the data were processed

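The 9 libraries were prepared with a strand-specific Illumina kit, per the labels' protocols. Build mm9, DESeq2 1.20.0, Subread 1.6.2 with its featureCounts program, HISAT2 2.1.0 and bcl2fastq 1.8.4 are listed in the submitters' processing notes. Neither the annotation nor the strand setting is given in the sources used here. The values the authors deposited are signal: reads per RefSeq transcript divided by 1 size factor per library. Of these values, 100.0% were whole reads within 0.05 reads once the factor was undone, and every row held at least 7 reads. Of 16260 transcripts, 16202 were named from RefSeq, 41 from GENCODE and 17 were left out, and transcripts of a gene were added. Transcript lengths and exon overlaps come from GENCODE on GRCm38, a build other than that of the table.

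The 6 members and all lists were chosen with earlier results of these data known. Genes with 10 normalized reads in at least 3 libraries (10578) were tested with limma 3.58.1 (R 4.3.3) on log2(value + 1), a mean for each group in 1 fit, a variance trend, two-sided, with Benjamini-Hochberg adjustment. The threshold for a call was an adjusted p of 0.05. The method was tested on simulated data. Alternatives were a pseudocount of 5, no filter, upper-quartile rescaling, tests of recovered reads with DESeq2 1.42.0 and edgeR 4.0.16, fits of the compared groups, a replicate block and each library left out. The rule for single-library genes was also applied to genes that did not pass the filter, and every row inside the clusters was listed, both chosen after seeing the data. Genes were named by a fixed rule: the members, every other Hox gene in the table, up to 4 called genes of each list and comparison by adjusted p, the 3 genes most like each member, and the 3 nearest genes on each side of a cluster. Genes of the cell type lists appear as sums, with single genes chosen after their values were seen, and some genes that the rule picked are not reported here. Meis1, Eed, Suz12, Pax3 and Dlx1, which were not called, were chosen after their values were seen. Figures were drawn with matplotlib 3.10.9.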

Additional observations from a re-analysis of the deposited data

How the results depend on the processing

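The number of called genes was 3696 in OB against AG (1688 higher, 2008 lower) and 3712 in BS against AG (1652 higher, 2060 lower). Leaving out 1 library at a time gave 2503 to 3743 and 2427 to 3578 calls, the fewest without AG_2 (2503 and 2427), AG_1 (2509 and 2450) or AG_3 (2533 and 2464). Upper-quartile rescaling moved the split to 2014 higher and 1767 lower in OB and 2036 and 1737 in BS, with a median shift of 0.12 and 0.14 on the log2 scale. edgeR gave 1961 higher and 1764 lower in OB and 1900 and 1780 in BS, and DESeq2 2237 and 2048, and 2194 and 2077. OB against BS had 0 calls, but 6 with a pseudocount of 5, 233 with DESeq2 and 0 to 96 when 1 library was left out (1 without BS_295, 3 without BS_296, 3 without OB_257, 96 without OB_287). With the number in the titles as a replicate block it had 131. The numbers pair only BS_287 with OB_287 (r = 0.07 of their deviations from the group means) and BS_295 with OB_295 (r = 0.30, beside 0.29 for BS_296 with OB_295). No label ties a number to a shared animal or day. The causes of these shifts were not tested. The log2 ratio of each member's highest to its next highest library was taken again under 3 alternatives (pseudocount, rescaling, scaling by total reads). Each ratio moved by less than its counting error, and which library was highest was not worked out again. For Hoxd3 and Hoxd4 that error is wide, because the next library held a single read, so the check could hardly show a shift. Their ratios did depend on the pseudocount: 134 and 310 without one became 69.5 and 142 with 1 normalized read added to both libraries. Of 73 calls of genes in the lists, over both comparisons with AG, 48 were kept in every alternative that gave an adjusted p, 25 were lost in at least 1 and 0 were reversed. DESeq2 gave no adjusted p for Pax8 in either comparison and for En1 in OB. Few reads limit Hoxd3 and Hoxd4 outside OB_257 and all members in BS_287.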
